A study of Mus musculus with 24 samples.

Results

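The question was which genes answered bacterial lipopolysaccharide (LPS) differently when macrophages were bathed in mouse serum than when they were bathed in medium without serum. For each gene the LPS response was the log2 level with LPS minus the log2 level without it, and the response in no serum was subtracted from the response in mouse serum. This difference of responses rests on 12 of the 24 arrays of the series, 3 in each of 4 groups. Of 11785 genes tested, 761 (6.46%) had a difference of responses that passed limma's test at a Benjamini-Hochberg adjusted p of 0.05. Each of these was then sorted by where mouse serum and no serum differed, in the cells left without LPS (the resting level), in the cells given LPS, or in both.

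The cells were bone marrow derived macrophages of C57Bl/6 mice, kept overnight in Dulbecco's modified Eagle's medium with glucose, L-glutamine, penicillin and streptomycin and then washed. The No Serum Control group received fresh medium alone, and the No Serum LPS group received it with LPS at 25 ng/ml. The Mouse Control group received medium with 5% mouse serum, and the Mouse LPS group received mouse serum and LPS together. The serum had been heated at 56 °C for 30 min to inactivate complement, and all cells were harvested 4 h after the change of medium. The resting level is therefore a level 4 h after serum was added or left out, not one before it. The remaining 12 arrays held the same pair of treatments in fetal calf serum and in human serum. The arrays of each group came from replicate experiments named G, H and I. The labels do not say that each used other animals, so p-values measure the spread between experiments. The labels name a commercial source of the mouse serum and no lots.

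Levels are log2 expression values, on which a step of 1 is a doubling. Array medians of the 12 arrays lay between 5.05 and 5.12, and replicates of a group correlated at 0.985 to 0.992 across genes. The mean of 14 macrophage markers stood between 11.73 and 12.01 on all 12 arrays. In the LPS response 2 of them differed by serum, Cd14 and Mertk. Marker lists of neutrophils, dendritic cells, T and NK cells, B cells, red cells and platelets, and fibroblasts had means of 3.81 to 6.27. Some single markers were higher, such as the platelet chemokine Pf4 at 12.40. In these lists 3 members were called, Csf3r, Fscn1 and Ppbp, and their part in any result was not tested. In bulk RNA, fewer cells of a kind and less RNA per cell cannot be told apart.

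LPS is bound by LPS-binding protein and Cd14 and handed to the receptor Tlr4 with its partner Md-2. The receptor signals through the adaptors Myd88 and Trif to NF-kappaB, the MAP kinases and the interferon regulatory factors. Macrophages then make cytokines such as Tnf, the paired subunits Il12b and Il23a of interleukin-23, and interferon beta, and chemokines that call neutrophils, monocytes and T cells. A later wave of Il10, phosphatases and inhibitors brings the response down. Serum carries LPS-binding protein, lipoproteins, growth factors, hormones and platelet products, and is itself a classic stimulus of immediate early genes.

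Some genes described here lie close together or share a motif in front of their start. Shown are the 250 bases before the start of Cxcl1, Cxcl2 and Cxcl3, neighbouring genes of neutrophil-attracting chemokines, and of Ifnb1, the gene of interferon beta, because these are LPS-induced genes whose response differed by serum in unlike ways. They are from RefSeq, build GRCm38.p6, at chr5:90890995-90891244 (plus strand) for Cxcl1, chr5:90903649-90903898 (plus) for Cxcl2, chr5:90785851-90786100 (plus) for Cxcl3 and chr4:88522795-88523044 (minus) for Ifnb1. Capitals mark matches to the kappaB motif, the letters that NF-kappaB recognises.
Cxcl1: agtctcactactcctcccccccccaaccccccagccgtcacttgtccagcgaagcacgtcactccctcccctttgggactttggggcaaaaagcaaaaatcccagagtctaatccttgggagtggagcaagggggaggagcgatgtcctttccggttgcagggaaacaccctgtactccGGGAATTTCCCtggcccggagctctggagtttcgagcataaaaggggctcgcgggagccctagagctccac
Cxcl2: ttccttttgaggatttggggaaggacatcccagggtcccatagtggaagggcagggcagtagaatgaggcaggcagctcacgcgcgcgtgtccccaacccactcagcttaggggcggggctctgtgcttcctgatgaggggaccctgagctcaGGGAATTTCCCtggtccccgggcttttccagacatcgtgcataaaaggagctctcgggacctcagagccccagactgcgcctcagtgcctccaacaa
Cxcl3: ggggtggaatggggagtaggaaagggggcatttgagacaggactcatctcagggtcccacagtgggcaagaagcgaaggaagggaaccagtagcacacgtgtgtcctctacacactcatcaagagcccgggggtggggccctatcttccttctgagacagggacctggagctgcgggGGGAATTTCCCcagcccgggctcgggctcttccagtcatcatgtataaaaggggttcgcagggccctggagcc
Ifnb1: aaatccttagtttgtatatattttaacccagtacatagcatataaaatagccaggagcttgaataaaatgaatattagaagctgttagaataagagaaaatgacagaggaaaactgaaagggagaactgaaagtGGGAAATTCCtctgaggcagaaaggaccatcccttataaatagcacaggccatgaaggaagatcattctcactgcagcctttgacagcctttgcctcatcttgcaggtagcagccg
In the chemokine genes the capitals are the same run of 11 bases, GGGAATTTCCC, which holds 2 overlapping matches. Its first base lies 71 bases before the start in Cxcl1, 97 in Cxcl2 and 73 in Cxcl3. In Ifnb1 the match GGGAAATTCC begins 116 bases before the start. The 250 bases before Csf2, Il12b, Il33 and Jag1 were searched too and held no kappaB match. They are not shown, so every promoter shown holds a match. These matches are a description of letters. The promoter table does not list Il23a or Il10.

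The response was larger, or less negative, in mouse serum for 401 genes (3.4%) and smaller, or more negative, for 360 (3.05%). For 759 of the 761 the sign was the same in experiments G, H and I taken singly. The median size was 0.88 on the log2 scale, and 318 genes had a size of 1 or more. Over all genes tested the median difference of responses was 0.043. With each array centred on its median, 296 genes were called larger and 442 smaller, so that 40.1% of calls were in the larger direction. That centring moved the all-gene median of the LPS response from -0.186 to 0.058 in no serum and from -0.153 to 0.026 in mouse serum. At the threshold stood Rab31 with a difference of 0.47 ± 0.14 and an adjusted p of 0.0499, and just outside it Snapc2 with 0.89 ± 0.27 (SE) and 0.0503.

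By these calls, most genes differed between the media in one condition and not in the other. With LPS only, 346 genes (45.5%) differed between mouse serum and no serum, 185 with a larger and 161 with a smaller response. At rest only, 245 genes (32.2%) differed, 139 with a larger and 106 with a smaller response. In both conditions 126 differed, 59 of them in opposite directions and 67 in the same direction, and 44 passed neither single test. Without No Serum LPS replicate I, the number differing in both was 81. Over all genes tested, mouse serum and no serum differed at rest in 1156 (9.81%) and with LPS in 1579 (13.4%).

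The classes come from calls, so a gene placed in one may still differ a little in the other condition. Among genes that differed with LPS only, the median size of that difference was 0.77 and that of the resting difference 0.17, close to its standard error of 0.14. Among genes that differed at rest only, the sizes were 0.75 at rest and 0.16 with LPS. A size of 0.5 or more in the uncalled condition was seen in 18 and 14 genes. When classes were set by a size of 0.5 in each condition in place of the calls, 254 genes differed with LPS only, 210 at rest only, 120 in both and 177 in neither.

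**Figure D1:**
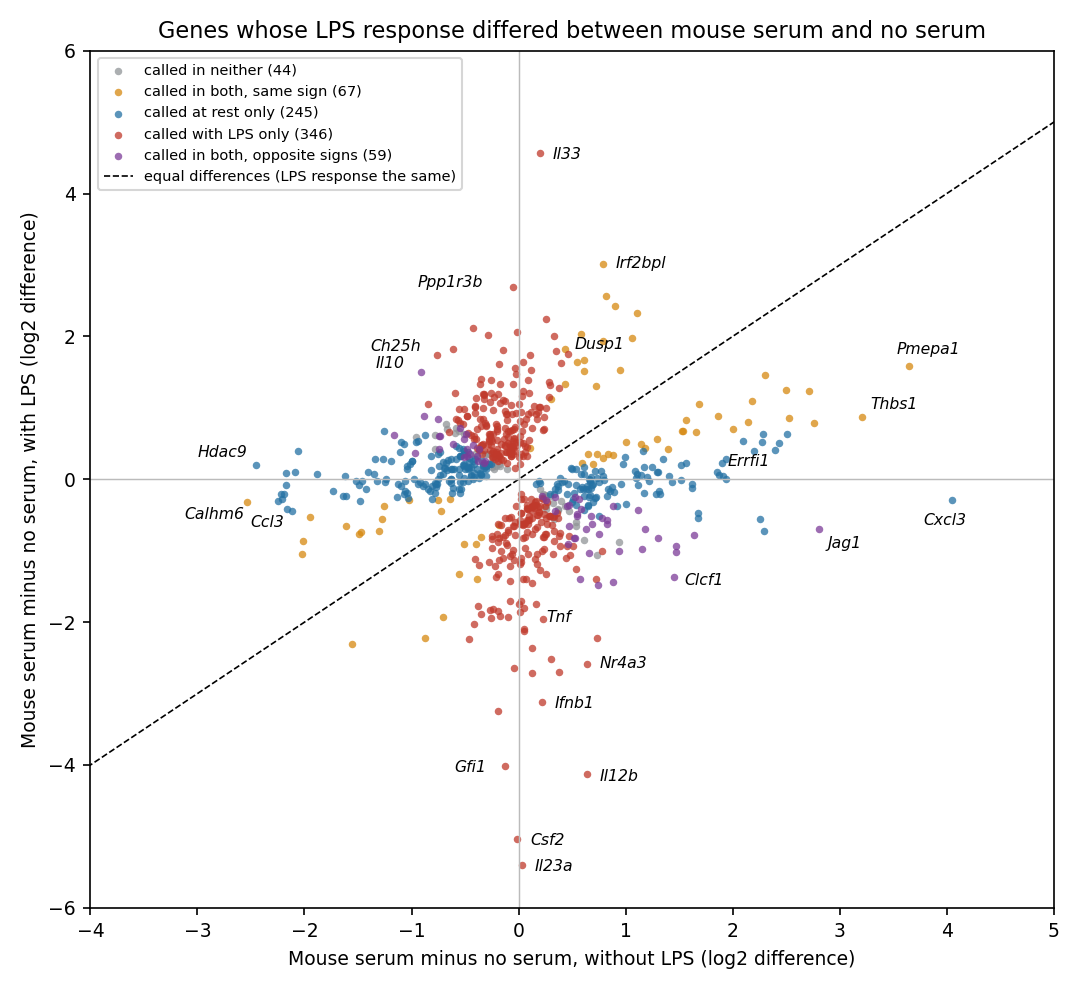
Difference between mouse serum and no serum at rest (horizontal axis, log2) and with LPS (vertical axis, log2) for the 761 called genes, 1 point a gene, coloured by class. Il23a at the bottom and Il33 at the top lie near 0 at rest, Cxcl3 and Hdac9 lie near 0 with LPS, and Jag1 and Il10 lie in opposite quadrants.

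The shapes of the responses varied within each direction. Of 401 genes with a larger response in mouse serum, LPS lowered 150 in both media, 97 in no serum with no call in mouse serum, and 19 in no serum while raising them in mouse serum. Another 86 were raised in both media and 49 were raised in mouse serum with no call in no serum. Of 360 genes with a smaller response, 141 were raised in both media, 85 in no serum with no call in mouse serum, and 28 were raised in no serum and lowered in mouse serum. A further 70 were lowered in mouse serum with no call in no serum, and 36 were lowered in both.

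Among the genes that differed with LPS only, the most negative differences of responses were those of the cytokine genes Il23a, Csf2 and Il12b. Il23a, which encodes the subunit particular to interleukin-23, stood in experiments G, H and I at 3.52, 3.14 and 3.29 in no serum at rest and rose with LPS to 9.55, 9.67 and 8.79. In mouse serum it was 3.2, 3.36 and 3.48 at rest and 3.93, 3.9 and 3.97 with LPS. The resting ranges overlap, while with LPS every mouse serum array lies below every no serum array. LPS raised Il23a 64.8-fold in no serum, and in mouse serum the difference of 0.59 had an adjusted p of 0.053. The difference of responses was -5.43 ± 0.35 (SE, n = 3 arrays a group; adjusted p = 5e-10).

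Csf2, the gene of granulocyte-macrophage colony-stimulating factor, behaved alike. It was 3.86, 3.76 and 4.12 at rest and 9.62, 8.9 and 9.42 with LPS in no serum, against 3.75, 3.89 and 4.09 at rest and 4.5, 4.01 and 4.34 with LPS in mouse serum. All 3 no serum arrays with LPS stand far above the mouse serum arrays, and the resting values interleave. The LPS response was 5.4 in no serum (a 42.2-fold rise) and 0.37 in mouse serum, where it did not pass (adjusted p = 0.17). Its difference of responses was -5.02 ± 0.32 (adjusted p = 3.4e-10).

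Il12b encodes the subunit shared by interleukin-12 and interleukin-23. Its values were 4.17, 3.92 and 4.24 at rest and 10.79, 10.79 and 10.72 with LPS in no serum, and 5.01, 4.71 and 4.53 at rest and 5.91, 6.92 and 7.08 with LPS in mouse serum. Here the resting values do not overlap either, mouse serum being the higher, but the resting difference of 0.64 did not pass (adjusted p = 0.23). With LPS the order was turned, and the difference between mouse serum and no serum was -4.13. LPS raised Il12b 101-fold in no serum and 3.7-fold in mouse serum, and the difference of responses was -4.77 ± 0.43 (adjusted p = 8.6e-08).

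Ifnb1, whose promoter is shown above, was induced in both media. It stood at 2.37, 2.69 and 3.15 at rest and between 9.68 and 10.87 with LPS in no serum, and at 2.54, 2.86 and 3.46 at rest and 6.62, 7.7 and 6.89 with LPS in mouse serum. The resting ranges overlap and the LPS ranges do not. The rise was 174-fold in no serum and 17.3-fold in mouse serum, with a difference of responses of -3.33 ± 0.45 (adjusted p = 3.4e-05). Many resting levels of these cytokine genes lie below 5.08, the median of all values, so their folds depend on how background was set. Both resting means were below it in 23 of the 161 genes with a smaller response and in 8 of the 185 with a larger one. The same limit applies to folds and differences of other genes below that rest on values under 5.08.

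Tnf, the first-line inflammatory cytokine, had tight replicates. It was 7.55, 7.6 and 7.83 at rest and 12.66, 12.62 and 12.57 with LPS in no serum, against 7.85, 7.79 and 7.83 at rest and 10.9, 10.84 and 10.9 with LPS in mouse serum. The resting ranges overlap, and with LPS the mouse serum arrays are lower by more than the whole spread of either group. The rise was 31.1-fold against 8.33-fold, and the difference of responses was -1.9 ± 0.13 (adjusted p = 7.7e-10).

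Other inducible genes of this class with a smaller response encode regulators and secreted or surface proteins. Gfi1, a transcriptional repressor of myeloid cells, had 9.03, 8.93 and 8.43 with LPS in no serum and 4.49, 5.74 and 4.13 in mouse serum, and a difference of responses of -3.88 ± 0.59 (adjusted p = 0.00015). Nr4a3, an orphan nuclear receptor of the immediate early kind, had 9.29, 9.23 and 9.34 in no serum and 6.19, 7.19 and 6.75 in mouse serum, and a difference of -3.22 ± 0.49 (adjusted p = 0.00015). In both genes the LPS arrays of the media do not overlap. Tnfsf9, the ligand of a costimulatory receptor of T cells, rose 27.4-fold in no serum and 10.5-fold in mouse serum. Ptx3, a soluble pattern recognition protein, rose 45.6-fold and 20.8-fold, with a difference of -1.13 ± 0.25; without experiment G it was -0.86 (adjusted p = 0.24). Ppp1r15a, which returns the translation factor eIF2 to its active state, rose 3.71-fold in no serum, and in mouse serum its response of 0.28 did not pass (adjusted p = 0.12).

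The chemokine Ccl22 rose 57.4-fold in no serum and 16.2-fold in mouse serum. Its difference of -1.83 ± 0.43 did not pass when only the 12 arrays of these groups were fitted (adjusted p = 0.056). For 2 of the 3 experiments, leaving that experiment out also lost the call of Ccl22. Adm, the peptide adrenomedullin, and Slco4a1, an organic anion carrier, were read on probe sets whose names mark possible cross-hybridisation. Adm had a difference of -2.95 ± 0.68 and Slco4a1 of -3.07 ± 0.33, and Adm lost the call without experiment G (-2.02, adjusted p = 0.22) or I. Hgf, hepatocyte growth factor, took another shape. It was 7.35, 7.43 and 6.78 at rest and 7.63, 7.45 and 7.32 with LPS in no serum, and fell in mouse serum from 8.01, 7.67 and 8.05 to 6.53, 5.43 and 6.28. With LPS the mouse serum arrays lie below all of the others. For Hgf the difference of responses was -2.11 ± 0.36 (adjusted p = 0.00054), and with the experiment as a replicate block Hgf also differed at rest. The 1 other probe set of Hgf gave no call in the difference of responses.

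Genes with a larger response that differed with LPS only included cytokine, lipid and signalling genes. Il33, an alarmin cytokine of the interleukin-1 family, was 2.24, 2.39 and 2.13 at rest and 2.63, 3.0 and 3.47 with LPS in no serum, and 2.39, 2.25 and 2.73 at rest and 7.76, 7.53 and 7.52 with LPS in mouse serum. Only the Mouse LPS arrays stand apart, above all 9 others. LPS raised it 1.72-fold in no serum and 35.5-fold in mouse serum, and the difference of responses was 4.37 ± 0.26 (adjusted p = 1.4e-10).

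Ch25h, the enzyme that makes 25-hydroxycholesterol, rose with LPS to 7.81, 8.39 and 8.48 in no serum and to 9.68, 10.16 and 10.05 in mouse serum, with no overlap. Its resting values were 4.6, 4.58 and 4.19 in no serum and 3.65, 3.63 and 3.82 in mouse serum, so the groups lay in the opposite order at rest. The resting difference of -0.76 had an adjusted p of 0.052, and it passed with the experiment as a replicate block. Its difference of responses was 2.5 ± 0.35 (adjusted p = 4.4e-05). Ifi202b, an interferon-inducible gene of the DNA-sensing family, rose 4.05-fold in no serum and 16-fold in mouse serum. Its probe set has a name ending in _s_at, so other transcripts may add to the signal, which was not tested. Lipg, endothelial lipase, rose 15.5-fold and 38-fold, but its call was lost without experiment H (1.06, adjusted p = 0.17) or I, and with the probe set of largest variance in place of the brightest (1.15, adjusted p = 0.05). Tnip2, an inhibitor of NF-kappaB signalling, was 6.89, 7.28 and 7.11 with LPS in no serum and 8.6, 8.24 and 8.61 in mouse serum. Its difference was 1.3 ± 0.26, and it lost the call without experiment I (1.26, adjusted p = 0.092).

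In other genes of the class LPS lowered the level in no serum and did so less in mouse serum. Fcgr3, an activating Fc receptor for immunoglobulin G, was 11.29, 11.47 and 11.47 at rest and fell to 10.16, 10.19 and 10.22 with LPS in no serum. In mouse serum it was 11.37, 11.48 and 11.48 at rest and 11.45, 11.21 and 11.41 with LPS. The 3 No Serum LPS arrays lie below the other 9. The response was -1.22 in no serum and -0.09 in mouse serum (adjusted p = 0.35), a difference of 1.13 ± 0.11 (adjusted p = 3e-07). Ppp1r3b, which targets a phosphatase to glycogen, had 8.3, 8.74 and 8.79 at rest and 4.74, 6.2 and 6.05 with LPS in no serum, and 8.1, 8.58 and 8.98 at rest and 8.18, 8.22 and 8.67 with LPS in mouse serum. Again it is the No Serum LPS arrays that are low, and the difference was 2.75 ± 0.47 (adjusted p = 0.00049). The zinc finger gene Zfp3 had a response of -2.33 in no serum and of -0.02 in mouse serum, and Hmga2-ps1 fell by 2.81 against 0.74 on the log2 scale.

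**Figure D2:**
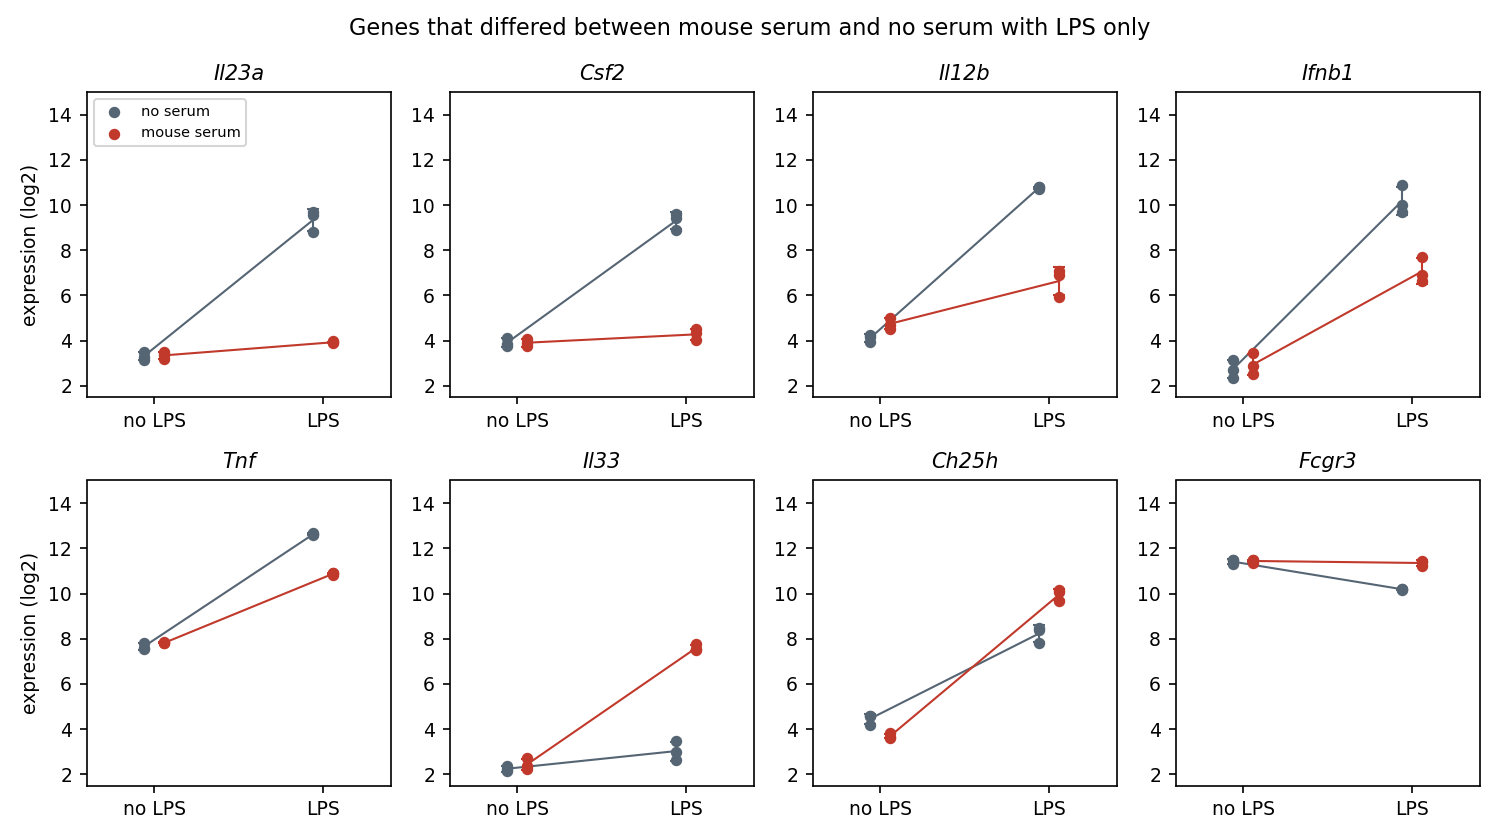
Log2 expression (vertical axis) without and with LPS (horizontal axis) of 8 genes that differed between mouse serum (red) and no serum (grey) with LPS only. Points are the 3 arrays of a group, lines join group means and bars are the SD. The LPS points of the media lie apart, as for Tnf near 12.6 in no serum and near 10.9 in mouse serum. The resting points of the media overlap except in Il12b and Ch25h.

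Genes that differed at rest only started from unlike levels, and their differences with LPS did not pass. Cxcl3, one of the chemokine genes shown above, was 3.3, 3.13 and 2.39 at rest in no serum and 6.75, 7.27 and 6.93 in mouse serum, with no overlap. With LPS it was 11.23, 10.91 and 11.11 in no serum and 10.78, 11.03 and 10.57 in mouse serum, and these ranges overlap. Mouse serum was higher at rest by 4.05 ± 0.29 (SE; adjusted p = 1.1e-09), and with LPS the difference of -0.29 did not pass (adjusted p = 0.6). LPS raised Cxcl3 in both media, with a difference of responses of -4.34 ± 0.41. Its resting values in no serum lie below 5.08, so the sizes of the resting difference and of the difference of responses depend on how background was set.

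A group of growth and signalling genes was high at rest in mouse serum. Met, the receptor of hepatocyte growth factor, was 7.17, 7.65 and 7.29 at rest in no serum and 9.56, 9.84 and 9.9 in mouse serum. With LPS it rose to 10.96, 11.18 and 10.99 in no serum and 11.5, 11.45 and 11.43 in mouse serum. Mouse serum was higher at rest by 2.4 on the log2 scale and with LPS by 0.41, which did not pass (adjusted p = 0.053) but did with the experiment as a replicate block. This gave a difference of responses of -1.98 ± 0.20 (adjusted p = 4.1e-07). Errfi1, a feedback inhibitor of the epidermal growth factor receptor, was 7.95, 8.17 and 8.07 in no serum and 9.94, 10.02 and 9.98 in mouse serum at rest, and 12.18, 11.94 and 12.26 in no serum and 12.24, 12.08 and 12.16 in mouse serum with LPS. The resting groups lie apart and the LPS groups interleave, and the difference of responses was -1.88 ± 0.17 (adjusted p = 8.6e-08). Lpar1, a receptor of lysophosphatidic acid, a lipid of serum, was higher at rest by 1.68, and LPS raised it 14.4-fold in no serum and 3.09-fold in mouse serum. Spsb1, an adaptor of a ubiquitin ligase, was higher at rest by 2.51 and had a difference of responses of -1.88 ± 0.39, which with the probe set of largest variance had an adjusted p of 0.056.

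Of 10 called genes in the list of NRF2 and haem targets, 5 were in the same class, among them Slc7a11 and Gclc. Slc7a11, the cystine carrier that feeds glutathione synthesis, was 7.62, 7.62 and 7.62 at rest in no serum and 9.41, 9.87 and 9.39 in mouse serum. With LPS it was 9.92, 9.41 and 9.8 in no serum and 9.53, 9.81 and 9.8 in mouse serum. In mouse serum it thus stood at rest where no serum cells came to stand with LPS, and its response there of 0.16 did not pass (adjusted p = 0.48). The difference of responses was -1.94 ± 0.25 (adjusted p = 2.5e-05). Gclc, the catalytic subunit of the first enzyme of that synthesis, was 9.84, 9.88 and 10.16 in no serum and 11.57, 11.38 and 11.63 in mouse serum at rest, and LPS lowered it to 9.24, 9.16 and 9.12 in no serum and 9.54, 9.19 and 9.5 in mouse serum. All 3 resting mouse serum arrays are the highest of the 12, and the difference of responses was -1.33 ± 0.18 (adjusted p = 2.9e-05).

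Nr4a2, Fkbp5, Mical2, Fosl1 and Trib1 were higher at rest in mouse serum, and LPS lowered each of them there. Nr4a2, a nuclear receptor of the same family as Nr4a3, was 6.45, 6.83 and 6.04 at rest and 7.41, 7.43 and 8.01 with LPS in no serum, but 8.99, 9.05 and 8.15 at rest and 6.94, 6.51 and 7.22 with LPS in mouse serum. LPS moved it by 1.17 in no serum (adjusted p = 0.019) and by -1.84 in mouse serum (adjusted p = 0.00075), a difference of -3.02 ± 0.59. Fkbp5, a co-chaperone of the glucocorticoid receptor and one of its best known targets, was 7.98, 8.57 and 7.98 at rest in no serum and 9.9 to 10.32 in mouse serum, and 8.87, 8.35 and 8.63 in no serum and 9.27, 8.52 and 8.75 in mouse serum with LPS. The resting ranges lie apart and the LPS ranges overlap. Its difference was -1.67 ± 0.26 (adjusted p = 0.00016), and with the probe set of largest variance it was -1.17 (adjusted p = 0.11). Mical2, an actin-oxidising enzyme, was 8.71, 8.48 and 8.23 at rest in mouse serum, above all other arrays, and fell to 5.56, 4.86 and 5.79 with LPS. Fosl1, a subunit of AP-1, was higher at rest by 1.85 and lost the call of its difference (-1.75 ± 0.40) without experiment G (-1.39, adjusted p = 0.13). Trib1, a pseudokinase, was higher at rest by 1.68 and lost its call without experiment H (-2.31, adjusted p = 0.066) or I. Ppbp, a platelet-type chemokine counted here among platelet markers, was 5.19, 5.21 and 5.37 in no serum and 7.38, 7.38 and 7.83 in mouse serum at rest and 5.08, 4.9 and 5.26 in no serum and 5.35, 5.64 and 5.83 in mouse serum with LPS.

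Ccl3, Ccl4 and Cxcl10, chemokines that call monocytes and T cells, went the other way and were low at rest in mouse serum. Ccl3 was 9.53, 9.61 and 9.78 at rest in no serum and 7.08, 7.4 and 7.96 in mouse serum. With LPS it was 13.81, 13.75 and 13.77 in no serum and 13.36, 13.4 and 13.35 in mouse serum. Mouse serum was lower at rest by a signed difference of -2.16 (adjusted p = 1.4e-08), and with LPS the difference of -0.41 did not pass (adjusted p = 0.16), although the arrays do not overlap. LPS raised Ccl3 17.6-fold in no serum and 59.4-fold in mouse serum, a difference of responses of 1.75 ± 0.26 (adjusted p = 9.9e-05). Its neighbour in function Ccl4 was 7.73, 7.99 and 7.71 in no serum and 6.08, 6.38 and 6.05 in mouse serum at rest and rose 29.3-fold and 77.2-fold.

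Cxcl10, an interferon-inducible chemokine of T cells, was 9.42, 9.49 and 9.4 at rest in no serum and 7.69, 8.2 and 7.85 in mouse serum, and 13.87, 13.85 and 13.77 in no serum and 13.78, 13.82 and 13.78 in mouse serum with LPS. The resting groups do not overlap and the LPS groups do, and the difference of responses was 1.49 ± 0.31 (adjusted p = 0.0031). It lost the call without experiment G (1.41, adjusted p = 0.098) or I. Levels with LPS for Ccl3, Ccl4 and Cxcl10 lay between 12.42 and 13.87, near the top of the values in the table, 14.84. Whether the arrays could still show a difference at such levels was not tested. This limit applies to other genes at such levels too, such as Cd14, Cxcl1 and Dusp1.

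Other genes with a low resting level in mouse serum are regulators and surface proteins. Hdac9, a class II histone deacetylase, was 7.97, 8.37 and 8.26 at rest in no serum and 5.65, 5.57 and 6.02 in mouse serum, and 7.5, 7.77 and 8.34 in no serum and 8.1, 8.17 and 7.94 in mouse serum with LPS. LPS moved it by -0.33 in no serum, which did not pass (adjusted p = 0.11), and by 2.32 in mouse serum, a difference of 2.65 ± 0.25 (adjusted p = 1.6e-07). Bmp2, a bone morphogenetic protein, was 5.89, 5.73 and 6.02 in no serum and 3.74, 3.84 and 3.79 in mouse serum at rest and 5.49, 4.89 and 5.38 in no serum and 5.27, 5.47 and 5.31 in mouse serum with LPS, so that LPS lowered it in no serum and raised it in mouse serum. Slc40a1, the iron exporter ferroportin, was lower at rest in mouse serum by a signed difference of -1.34 and was lowered by LPS to 0.0764 of its level in no serum and 0.235 in mouse serum. Fam214a was likewise lower at rest in mouse serum (-2.17), and with LPS its means in both media lay below 5.08, where a difference may not be measurable. That holds for 5 of the 139 genes of this class with a larger response and for 7 of the 106 with a smaller one. Sesn1, a stress-induced inhibitor of mTORC1, had a difference of 2.46 ± 0.44, which was 1.5 with the probe set of largest variance (adjusted p = 0.32) and 2.16 without experiment H (adjusted p = 0.083). Hpgd, which inactivates prostaglandins, was 7.0, 6.76 and 6.53 at rest in no serum and 4.46, 4.64 and 4.44 in mouse serum, and its difference of 1.95 ± 0.45 lost the call without experiment G (1.97, adjusted p = 0.13).

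**Figure D3:**
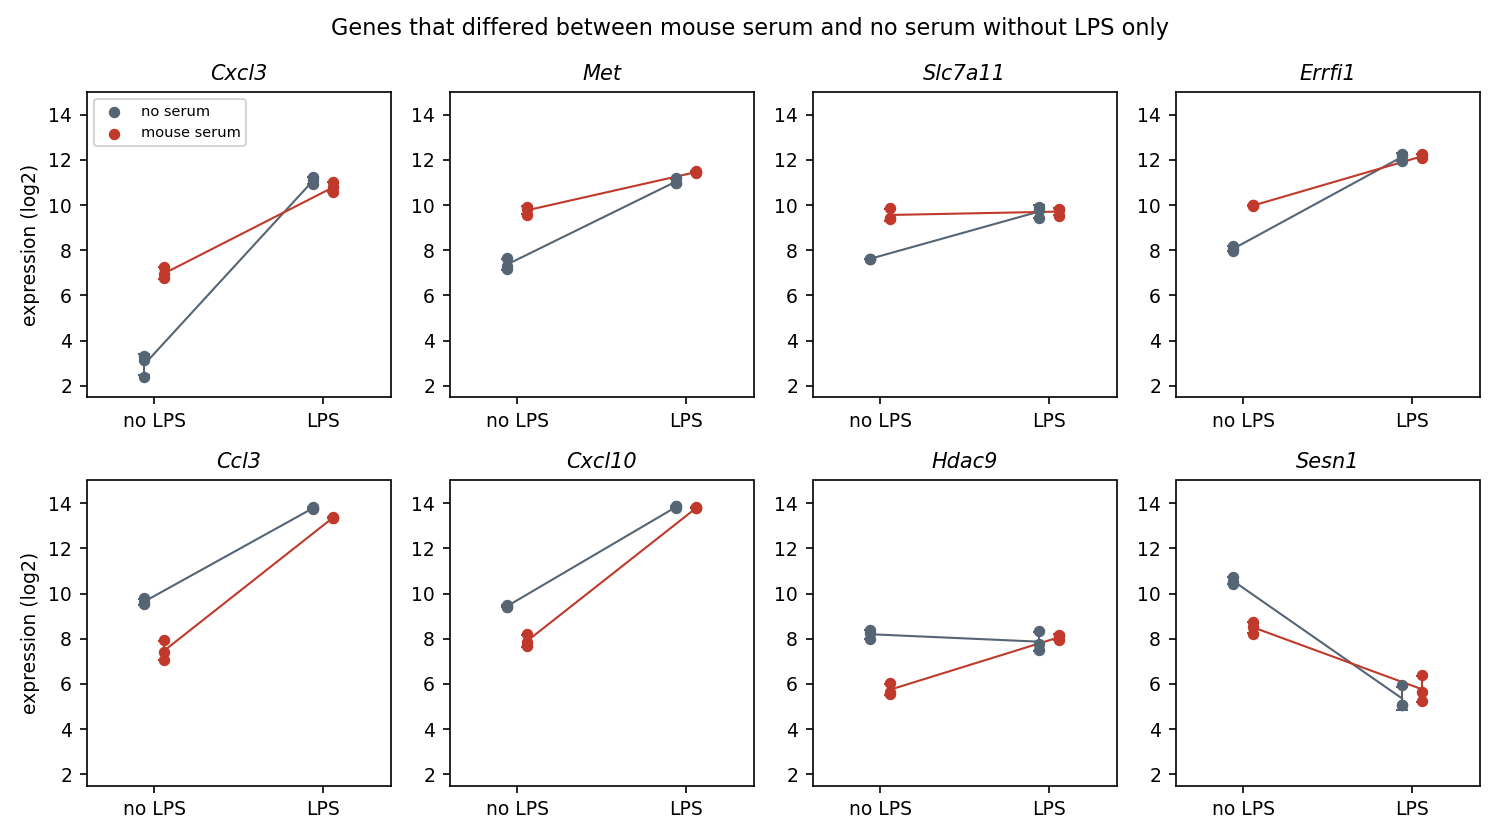
Log2 expression (vertical axis) without and with LPS (horizontal axis) of 8 genes that differed between mouse serum (red) and no serum (grey) at rest only. Points are the 3 arrays of a group, lines join group means and bars are the SD. Lines start apart and lie closer with LPS, Cxcl3 starting near 3 in no serum and near 7 in mouse serum, and Ccl3 starting higher in no serum. The LPS points of the media do not overlap in Met and Ccl3.

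In 59 genes mouse serum raised the level in one condition and lowered it in the other. Jag1, a Notch ligand, was 8.87, 8.72 and 9.05 at rest and 11.26, 11.4 and 11.36 with LPS in no serum, but 11.53, 11.8 and 11.74 at rest and 10.43, 10.85 and 10.64 with LPS in mouse serum. The mouse serum arrays are the highest at rest and the order is turned with LPS, with no overlap in either condition. LPS raised Jag1 5.5-fold in no serum and lowered it to 0.483 of its resting level in mouse serum. This gave a difference of responses of -3.51 ± 0.16 (adjusted p = 1.3e-12).

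Cxcl1 and Cxcl2, whose promoters are shown above, had this shape. Cxcl1 was 8.87, 9.61 and 8.94 in no serum and 10.61, 10.41 and 10.8 in mouse serum at rest, and 13.99, 13.9 and 13.93 in no serum and 12.74, 13.02 and 12.99 in mouse serum with LPS. Cxcl2 was 9.38, 9.61 and 9.43 in no serum and 10.57, 10.73 and 10.56 in mouse serum at rest, and 13.15, 13.11 and 13.15 in no serum and 11.98, 12.4 and 12.11 in mouse serum with LPS. For both, mouse serum was above no serum at rest and below it with LPS in every array. The differences of responses were -2.49 ± 0.21 for Cxcl1 (adjusted p = 3.3e-08) and -2.12 ± 0.15 for Cxcl2 (adjusted p = 2.2e-09). The probe set of Cxcl1 is marked for possible cross-hybridisation. At rest mouse serum was higher by 1.47 for Cxcl1 and 1.15 for Cxcl2 on the log2 scale. Cxcl3 also holds the capital run shown for them, and its difference with LPS did not pass.

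Further genes of this shape encode a cytokine of the interleukin-6 family, a small Maf factor, the activin subunit and a costimulatory protein. Clcf1, the cytokine, was 6.25, 6.63 and 6.82 in no serum and 8.07, 7.72 and 8.25 in mouse serum at rest and 10.78, 10.75 and 10.41 in no serum and 9.38, 9.12 and 9.33 in mouse serum with LPS, a difference of responses of -2.81 ± 0.39 (adjusted p = 4.1e-05). Maff was 8.14, 7.77 and 7.82 in no serum and 8.69, 8.74 and 8.94 in mouse serum at rest and 11.09, 11.19 and 11.2 in no serum and 9.49, 9.92 and 9.75 in mouse serum with LPS, a difference of -2.32 ± 0.20 (adjusted p = 6e-08). Inhba, the activin subunit, rose 22.1-fold in no serum and 5.08-fold in mouse serum. Cd80, the costimulatory ligand of T cells, was raised 3.39-fold in no serum, and its response of -0.11 in mouse serum did not pass (adjusted p = 0.72). With LPS the difference between mouse serum and no serum was -0.69 for Cd80 (adjusted p = 0.046). After quantile normalization Cd80 differed at rest only. Of 3 other probe sets of Cd80, 0 gave the same call. Sgk1, a kinase induced by serum and glucocorticoids, rose by 0.90 in no serum and was lowered in mouse serum (-0.44).

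Il10, the main anti-inflammatory cytokine of macrophages, had the reverse order. It was 3.86, 4.01 and 3.95 at rest in no serum and 3.5, 2.66 and 2.93 in mouse serum. With LPS it was 6.77, 7.53 and 7.3 in no serum and 8.61, 8.91 and 8.57 in mouse serum. Mouse serum is the lower group at rest and the higher one with LPS, with no overlap in either. LPS raised Il10 9.59-fold in no serum and 50.9-fold in mouse serum, a difference of responses of 2.41 ± 0.31 (adjusted p = 1.8e-05). Its resting values lie below 5.08, so that the folds depend on background, while the level with LPS was higher in mouse serum by 1.5 ± 0.22 (SE). Cd200r1, an inhibitory receptor of myeloid cells, was lowered in no serum to 0.437 of its resting level, and its response of 0.08 in mouse serum did not pass (adjusted p = 0.61).

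In 67 genes the serum difference had the same sign in both conditions but an unlike size. Thbs1, thrombospondin-1, was 8.14, 8.37 and 8.26 at rest and 7.92, 8.26 and 7.65 with LPS in no serum, and 11.47, 11.55 and 11.36 at rest and 8.64, 8.95 and 8.86 with LPS in mouse serum. Mouse serum was above no serum throughout, by 3.21 at rest and 0.87 with LPS, and the difference of responses was -2.34 ± 0.23 (adjusted p = 3.9e-07). Pmepa1, a target and inhibitor of TGF-beta signalling, was 6.96, 7.16 and 6.99 in no serum and 10.65, 10.74 and 10.69 in mouse serum at rest, and 9.31, 9.32 and 9.31 in no serum and 10.79, 11.01 and 10.88 in mouse serum with LPS. It rose 4.84-fold in no serum, while in mouse serum the response of 0.20 did not pass (adjusted p = 0.2). Trem1, an amplifying receptor of myeloid cells, was 3.08, 3.53 and 3.58 in no serum and 5.95, 6.69 and 5.82 in mouse serum at rest, and fell in mouse serum to 4.16, 4.67 and 4.83 with LPS. Vegfa, a growth factor of vessels, was 7.99, 7.75 and 8.12 in no serum and 10.07, 9.96 and 9.84 in mouse serum at rest and was lowered by LPS in both media. Without experiment I its difference of responses was -1.29 (adjusted p = 0.051).

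Dusp1, the phosphatase that switches off p38 and JNK kinases, showed the opposite change. It was 12.66, 12.53 and 12.64 at rest and 11.32, 11.52 and 11.43 with LPS in no serum, and 13.04 ± 0.03 (SD, n = 3) at rest and 13.15, 13.42 and 13.2 with LPS in mouse serum. The No Serum LPS arrays are the lowest of the 12 and the Mouse LPS arrays the highest. LPS moved Dusp1 by -1.19 in no serum and by 0.22 in mouse serum, and the difference of responses was 1.41 ± 0.09 (adjusted p = 2e-10). Dusp5, which acts on ERK, went the other way, with a difference of -1.25 ± 0.17. Ccnd1, cyclin D1, was lowered to 0.385 of its resting level in no serum, while in mouse serum the response of 0.08 did not pass (adjusted p = 0.62). Irf2bpl, on a probe set marked for possible cross-hybridisation, had the same shape with a difference of 2.23 ± 0.23. Gadd45g, a stress-induced gene, was 7.44, 7.47 and 7.27 with LPS in no serum and 10.02, 9.81 and 9.61 in mouse serum.

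**Figure D4:**
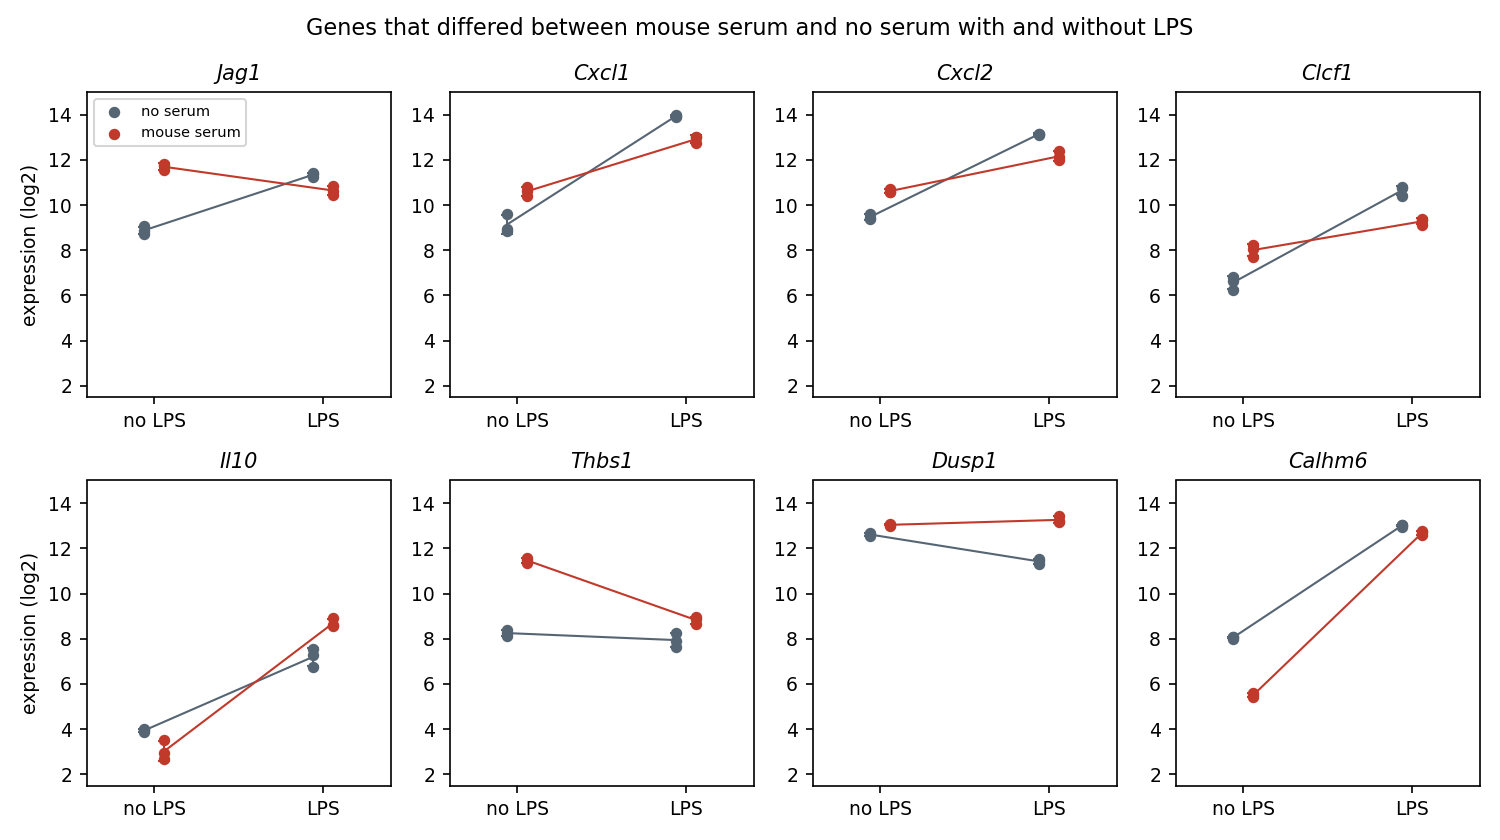
Log2 expression (vertical axis) without and with LPS (horizontal axis) of 8 genes that differed between mouse serum (red) and no serum (grey) in both conditions. Points are the 3 arrays of a group, lines join group means and bars are the SD. Lines of Jag1, Cxcl1, Cxcl2, Clcf1 and Il10 cross, and those of Thbs1, Dusp1 and Calhm6 do not.

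On the receptor side of the pathway, of 16 tested members of the LPS receptor complex and its adaptors, 2 were called, Cd14 and Irak2, both with a smaller response, and the median was 0.02. Tlr4 itself was 11.48, 11.47 and 11.42 at rest and 11.24, 11.17 and 11.15 with LPS in no serum, and 11.02, 11.17 and 11.05 at rest and 10.73, 10.89 and 10.83 with LPS in mouse serum. Mouse serum was lower in both conditions (-0.38 at rest and -0.37 with LPS), and the difference of responses was 0.01 ± 0.10 (adjusted p = 0.99). Its sign turned to -0.06 with arrays centred on their medians. Cd14, the co-receptor, was 11.33, 11.35 and 11.6 at rest in no serum and 12.56, 12.73 and 12.55 in mouse serum, and 12.34, 12.5 and 12.42 in no serum and 12.8, 12.86 and 12.9 in mouse serum with LPS. It started higher in mouse serum and rose 1.99-fold in no serum against 1.18-fold, a difference of -0.75 ± 0.11 (adjusted p = 7.8e-05). Its levels in mouse serum lie near the top of the values, where a smaller rise may reflect the scale, which was not tested. Irak2, a kinase of the pathway, had a difference of -1.0 ± 0.17 (adjusted p = 0.00036).

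Among 18 tested inflammatory cytokines 3 had a larger and 8 a smaller response, with a median of -0.78, against 0.043 over all genes. Of the 11 called, 8 differed with LPS only. Il6, Il1b and Nos2, genes fixed for reporting whatever their p, did not pass. Il6 was 11.95, 11.87 and 12.06 with LPS in no serum and 11.11, 11.51 and 11.31 in mouse serum, from resting levels between 2.14 and 2.69, and its difference of responses was -0.59 ± 0.25 (adjusted p = 0.19). The level with LPS was lower in mouse serum by a signed -0.65 (adjusted p = 0.014). Il1b had a difference of -0.65 ± 0.22 (adjusted p = 0.092), which passed after quantile normalization (-0.73, adjusted p = 0.037), with centred arrays (-0.71, adjusted p = 0.042) and without Mouse Control replicate I (-0.82, adjusted p = 0.024). Nos2, the inducible nitric oxide synthase, had 0.56 ± 0.29 (adjusted p = 0.32).

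The chemokine lists follow the cells that each kind calls. Of 5 neutrophil-attracting CXC chemokines 4 were called, all with a smaller response (median of the 5, -2.12), namely Cxcl1, Cxcl2, Cxcl3 and Ppbp. Of 11 CC chemokines 2 had a larger and 1 a smaller response, namely Ccl3, Ccl4 and Ccl22. Of 4 T cell-attracting CXC chemokines Cxcl10 was larger and Cxcl9 smaller. Cxcl9, at -1.32, lost its call when any of 6 of the 12 arrays was left out. These were No Serum Control replicate H, No Serum LPS replicates G and I, Mouse Control replicates G and I, and Mouse LPS replicate H, without which the adjusted p was highest (0.066).

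Ifnb1 was lower with LPS in mouse serum. Of 36 tested genes of the type I interferon response 1 was called, Tor3a, in the larger direction. Over all genes tested 6.46% were called. In mouse serum 5 members of the list were lower at rest and 0 higher, and with LPS 0 differed. The list's median was 0.21, and its members rose with LPS by a median of 3.05 in no serum and 3.17 in mouse serum. Tor3a was 9.79, 9.83 and 9.88 in no serum and 9.08, 9.31 and 8.79 in mouse serum at rest, and 11.73, 11.72 and 11.77 in no serum and 11.78, 11.59 and 11.69 in mouse serum with LPS. Its call was lost without experiment G (0.70, adjusted p = 0.076) or I.

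On the braking side of the pathway, 20 negative regulators of Toll-like receptor signalling held 3 with a larger and 6 with a smaller response (median -0.40). Dusp1 was the largest gain among those named, while Trib1, Dusp5 and Dusp4 had smaller responses. The list of anti-inflammatory mediators and the Il10 axis, 18 tested, held 5 larger and 2 smaller responses (median 0.07), led by Il10, Dusp1 and Cd200r1. Il4ra, a receptor chain of interleukins 4 and 13, was also larger at 0.90 ± 0.19, and lost its call without experiment I (0.77, adjusted p = 0.14). Of 14 NF-kappaB subunits and inhibitors 1 was larger, Tnip2, and 2 smaller. Tnfaip3, a deubiquitinase that ends NF-kappaB signalling, rose 9.11-fold in no serum and 6.38-fold in mouse serum, and its difference of -0.51 ± 0.13 lost the call without experiment G (-0.33, adjusted p = 0.36) or H.

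Genes known to answer serum itself were taken next. Of 33 serum response and immediate early genes, 4 had a larger and 11 a smaller response (median -0.27), and 20 were higher at rest in mouse serum. The cyclic AMP and CREB list, 21 tested, held 3 larger and 7 smaller responses (median -0.48). In the TGF-beta response list, 15 tested, 5 were called, all smaller, among them Thbs1, Pmepa1 and Skil. Skil, a repressor of Smad proteins, was 10.07, 9.97 and 10.23 in no serum and 11.05, 11.36 and 11.12 in mouse serum at rest and 11.64, 12.02 and 12.02 in no serum and 11.87, 12.09 and 12.05 in mouse serum with LPS. Its difference of -0.98 ± 0.18 lost the call without experiment H (-0.81, adjusted p = 0.095). Of 11 BMP and Id genes 1 was larger, Bmp2, and 3 smaller. Id2, an inhibitor of helix-loop-helix factors, rose 2.73-fold in no serum and 1.36-fold in mouse serum, a difference of -1.01 ± 0.18 (adjusted p = 0.0006).

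Stress and metabolic lists were uneven. Of 21 NRF2 and haem targets 1 had a larger and 9 a smaller response (median -0.30), and 14 were higher at rest in mouse serum. Slc40a1 was the one larger. Of 34 amino acid and integrated stress response genes 1 was larger and 4 smaller, and of 25 glycolysis and HIF1 targets 3 were called, all smaller. The 20 glucocorticoid receptor targets held 3 of each direction, with Dusp1 larger and Fkbp5, Errfi1 and Sgk1 smaller. By limma 0 of 20 unfolded protein response genes and 0 of 19 cholesterol synthesis genes were called, also without trend and robust, and 3 and 7 had an unadjusted p under 0.05. Their medians were -0.03 and 0.02. The list counts carry no test, since members were chosen with earlier results of these data known. The share of all genes called was 6.46%.

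**Figure D5:**
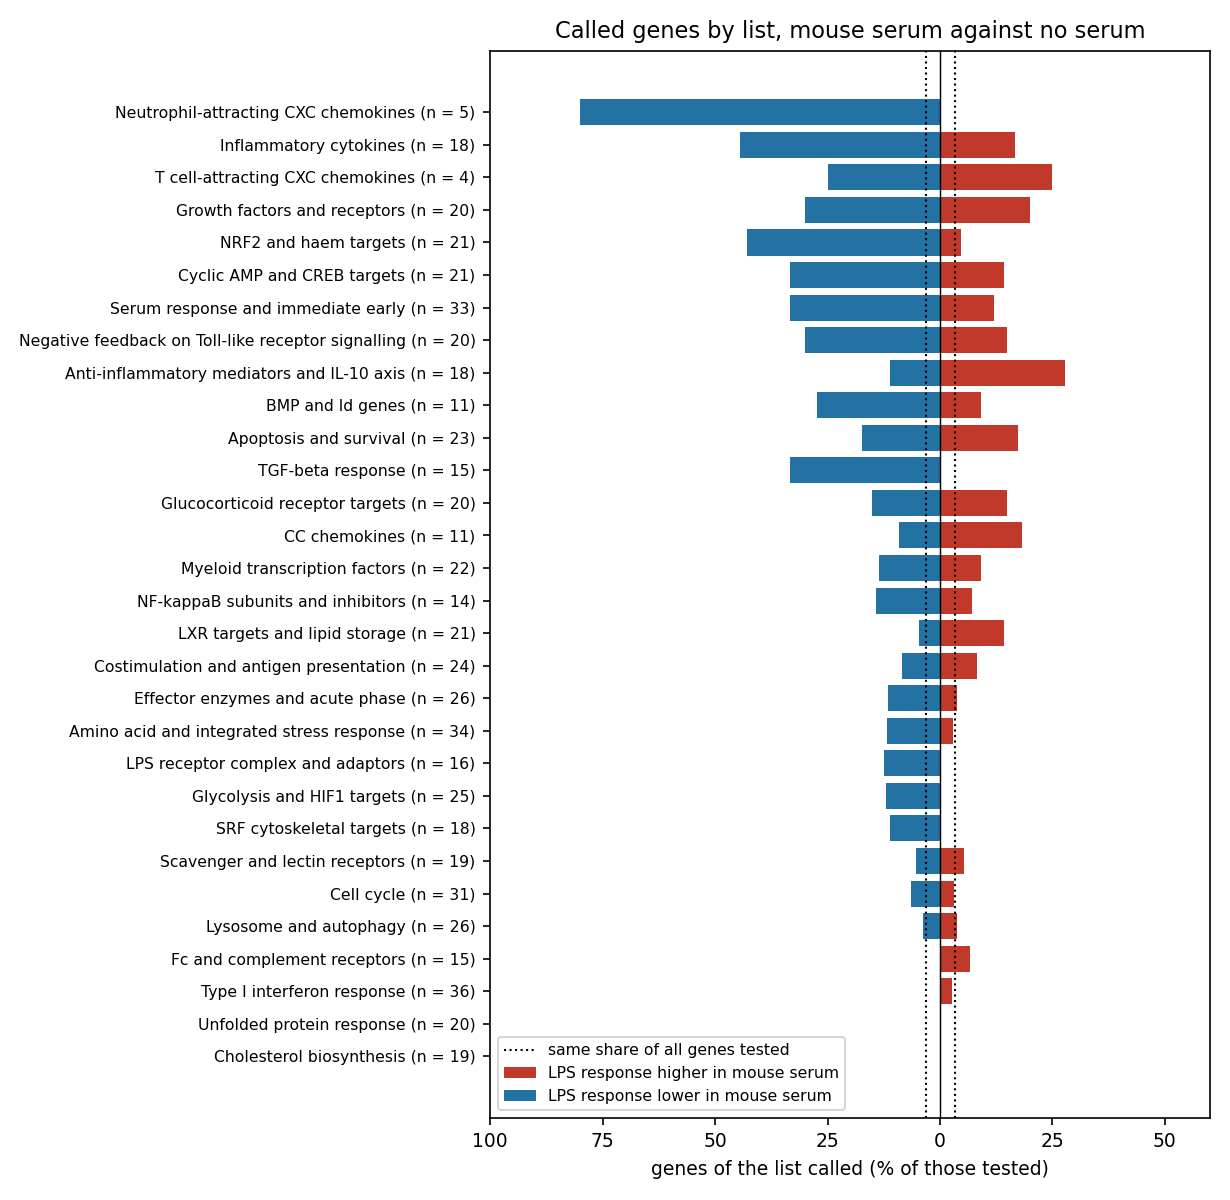
Percent of the tested genes of each list (rows) that were called in the difference of LPS responses (horizontal axis). Red bars to the right are larger responses in mouse serum, and blue bars to the left are smaller ones. Dotted lines mark the shares of all genes tested, 3.4% larger and 3.05% smaller. Marker lists are not drawn. The neutrophil-attracting CXC chemokines, with 4 of 5 called, reach furthest to the left. Of the type I interferon response 1 of 36 was called, to the right.

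The direction in which LPS moves a gene was taken from the calf and human serum arrays, and this grouping was added after the data had been seen. Those arrays do not enter the estimate of the difference of responses but do enter the variance behind its calls. Of 1825 genes raised by LPS in those sera, 160 (8.77%) had a smaller and 112 (6.14%) a larger response in mouse serum than in no serum. Of 3407 genes lowered there, 179 (5.25%) had a larger and 71 (2.08%) a smaller response. Among the other 6553 genes the shares were 1.68% larger and 1.97% smaller. The median difference of responses was -0.02 in the raised and 0.11 in the lowered genes.

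Mouse serum was set against the other sera by testing the difference between their LPS responses, in which the no serum arrays cancel. Against calf serum 445 genes (3.78%) differed, and against human serum 74 (0.628%). With the experiment as a replicate block the number against human serum was 133, and without Mouse Control replicate I it was 46. Each serum's own response minus the no serum response is given side by side here, and these share the no serum arrays. For Tnf the values were -1.90 in mouse, -0.40 in calf and -2.0 in human serum. Mouse serum differed from calf serum by -1.5 ± 0.13 (adjusted p = 1.5e-07), and from human serum by 0.10 ± 0.13 (SE), which did not pass (adjusted p = 0.92). Cxcl1 had -2.49, 0.56 and -1.58, and Cxcl2 -2.12, 0.70 and -1.80. Against calf serum the difference was -3.05 ± 0.21 for Cxcl1 and -2.82 ± 0.15 for Cxcl2 (adjusted p = 2.2e-09 and 5.9e-11). Against human serum Cxcl1 passed, at -0.91 ± 0.21 (adjusted p = 0.043), and Cxcl2, at -0.32 ± 0.15, did not (adjusted p = 0.53). Il10 had 2.41, 0.36 and 2.10, and Il33 had 4.37, 2.10 and 3.73. Both differed between mouse and calf serum, by 2.05 ± 0.31 and 2.27 ± 0.26, and neither passed against human serum.

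Some named genes passed the test between mouse and human serum, with or without passing between mouse and calf serum. Ch25h had values of 2.50 in mouse, 0.74 in calf and -0.64 in human serum, and its response in mouse serum was larger than in human serum by 3.14 ± 0.35 (SE; adjusted p = 2.4e-05) and than in calf serum by 1.76 ± 0.35 (adjusted p = 0.0032). Hgf had -2.11, -0.97 and 0.16, and differed from human serum by -2.27 ± 0.36 (adjusted p = 0.0019), while the value against calf serum, -1.14 ± 0.36, did not pass (adjusted p = 0.094). Ifnb1 had -3.33, -2.33 and -1.10, and differed from human serum by -2.23 ± 0.45 (adjusted p = 0.018), and the value against calf serum, -1.0 ± 0.45, did not pass (adjusted p = 0.3). Ccl3, at 1.75, -0.30 and -0.01, differed from both, by 2.06 ± 0.26 from calf serum and 1.77 ± 0.26 from human serum. Hdac9, at 2.65, 0.08 and 0.78, also differed from both, by 2.57 ± 0.25 and 1.87 ± 0.25. For Il23a, Csf2 and Il12b all sera had smaller responses than no serum. Il23a differed from human serum by -1.63 ± 0.35 (adjusted p = 0.028), and its value of -1.05 ± 0.35 against calf serum did not pass (adjusted p = 0.12). The mouse serum value was below the calf serum value by -2.33 ± 0.43 for Il12b (adjusted p = 0.0015), and against human serum the difference of -0.56 ± 0.43 did not pass (adjusted p = 0.82). For Csf2 neither passed, at -0.83 ± 0.32 against calf serum (adjusted p = 0.19) and -1.09 ± 0.32 against human serum (adjusted p = 0.14).

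Promoters were searched for motifs on both strands, from 250 bases before the start to 50 after it, and matched 9572 of the tested genes. A kappaB match was found in 6.29% of these and in 5.14% of all 27025 genes of the table. Among genes that differed with LPS only it was found in 15 of 131 with a smaller response (11.5%) and 15 of 150 with a larger one (10%). At rest only the shares were 5.62% for a smaller response (5 of 89) and 5.66% for a larger one (6 of 106). In both in opposite ways they were 13.8% (4 of 29) and 6.25% (1 of 16). In both in the same way they were 7.14% (2 of 28) and 16% (4 of 25). The CRE, TGACGTCA, was found in 3.47% of tested genes. With LPS only its share was 7.63% for a smaller response (10 of 131) and 2% for a larger one (3 of 150). At rest only it was 3.37% and 0.943%. In both in opposite ways it was 6.9% and 6.25%, and in the same way 3.57% and 8%. AP-1, TGANTCA, was found in 6.44% of tested genes. Among genes with a smaller response its share was 7.63% where they differed with LPS only, 13.5% at rest only (12 of 89), 17.2% in both in opposite ways (5 of 29) and 25% in both in the same way (7 of 28). Among genes with a larger response it was 6.67% with LPS only (10 of 150) and 3.77% at rest only (4 of 106). It was 8% in both in the same way (2 of 25) and 0% in both in opposite ways (0 of 16). Neither of these letter strings contains the other, and both may lie beside a kappaB match. The antioxidant response element, TGACNNNGC, had shares from 17.6% to 28.6% over these classes, against 17.1% of tested genes. The ISRE, CArG, CARE and glucocorticoid response element motifs were searched too, and their shares are not given here. A kappaB match was also found in the promoters of Cxcl10, Il6, Tnfaip3 and Maff. None was found in those of Tnf, Csf2, Il12b, Ccl3, Il33 or Jag1, which says only that these letters are not in this window.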

How the data were processed

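Expression was measured on 24 Affymetrix mouse arrays, and the log2 values used are those the authors deposited. GCRMA and Partek stand in the submitters' processing notes with no version, and other settings are not given in the sources used here. That the base is 2 was judged from the lowest (1.48) and highest (14.84) value. The platform's annotation gave 1 gene to 34945 of 45101 probe sets. Probe sets were kept where 3 or more arrays exceeded 5.08, the overall median, and the brightest stood for its gene, which left 11785 genes. Names ending in _x_at mark possible cross-hybridisation. Of 113 named genes 22 were read on probe sets ending in _s_at or _a_at, which can match more than 1 transcript. Of 89 other probe sets of called named genes, 45 gave the same call, 0 the opposite one and 44 none.

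All 24 arrays entered 1 linear model with a mean for each of 8 groups, fitted with limma 3.58.1 (R 4.3.3; empirical Bayes with trend and robust; 16 residual and a median of 6.37 prior degrees of freedom). Tests are two-sided, adjusted by Benjamini and Hochberg within each contrast, with a threshold of 0.05. A gene was called by class when the mouse serum minus no serum contrast passed at rest, with LPS, or both. On simulated data from these 11785 genes, 53% of changes of size 1 and 94% of size 2 in the difference of responses were recovered. Among the genes left unchanged in the same simulation there were 2 false calls. The simulation gave every group the same mean for a gene, with independent normal noise, and added changes to Mouse LPS only. It held no other effect of LPS, serum or experiment, so its counts do not measure the error of the real calls or classes. For arrays the number of replicates, 3 a group, limits the precision.

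The letters G, H and I mark replicate experiments per the labels. The number that ends each array's name in the labels follows these letters on the 12 arrays, and what it marks is not stated. Deviations from group means correlated at a median of 0.055 (-0.046 to 0.172) over 18 pairs of arrays of 1 experiment, 3 of them over 0.1, and at -0.039 over 36 pairs of different experiments. The paired fit, with the experiment as a replicate block, called 490 genes larger and 436 smaller and changed the call of 0 of 113 named genes.

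The genes, the lists, the naming rule and the tests were chosen with earlier results of these data known. Named were genes called in the difference of responses, of 1 sign in all experiments, with the largest differences in each class and between sera, the leading called members of each list, and Tnf, Il6, Il1b, Il12b, Il10, Ifnb1, Nos2, Cxcl10, Cd14 and Tlr4 whatever their p. Alternatives were the fitted arrays, the replicate block, quantile normalization, centring, the filter, the choice of probe set, plain moderation, each array or experiment left out, and a minimum size. Tables came from pandas 2.3.3 and numpy 2.4.6 under Python 3.11.15, and figures from matplotlib 3.10.9. The scanner files were not used here.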

Additional observations from a re-analysis of the deposited data

Results flagged for a closer look

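The response to LPS was tested for a difference between media gene by gene. Between mouse serum and no serum 761 of 11785 genes (6.46%) differed, between mouse and calf serum 445 (3.78%), and between mouse and human serum 74 (0.628%).

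LPS moved 47 genes in opposite directions in mouse serum and no serum, each past its own test and past the test of the difference. Among the named genes, the response in mouse serum minus that in no serum was 2.19 for Bmp2 and 1.41 for Dusp1, which LPS lowered in no serum and raised in mouse serum. It was -3.51 for Jag1, -3.02 for Nr4a2, -1.67 for Fkbp5 and -1.34 for Sgk1, which LPS raised in no serum and lowered in mouse serum.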

How the results depend on the processing

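No alternative fit called any of the 761 genes in the opposite direction. The replicate block kept 760 of them, and moved the count between mouse and human serum from 74 to 133; it changed no named gene's call in the difference of responses. With a size of at least 1 required, 153 genes were larger, 165 smaller, 97 differed at rest only, 143 with LPS only and 64 in both. With 1 array or 1 experiment left out, the counts ran from 161 to 370 (larger), 170 to 328 (smaller), 126 to 238 (rest only), 146 to 307 (LPS only) and 40 to 110 (both). The lowest count of each was without experiment I, where fewer arrays were fitted. With 1 array left out the count between mouse and human serum ran from 46 to 77. Of 109 called named genes 96 kept the call whichever of the 12 arrays was left out, and 46 lost it when an experiment was. The 13 that lost it with 1 array were Cd40, Cdc20, Ctsd, Cxcl9, Gpr155, Mylip, Nfkbid, Pparg, Psmb9, Serpinb2, Sqstm1, Tpm4 and Tspyl3. Signs turned for Cd40 with the probe set of largest variance (-0.07) and for Tlr4, which was not called, with that probe set (-0.40), with centred arrays (-0.06) and in a range of -0.03 to 0.05 with an array or experiment left out. The cause was not tested.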
